A study of Mus musculus with 13 samples.

Results

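Cytochrome P450 genes were described across the peak lists of 4T1 cells, a mouse mammary tumour line derived from a spontaneous tumour of the BALB/cJ strain. Members were all genes whose symbol has the form of a P450 name, that is Cyp followed by a family number, a subfamily letter and a gene number, in any of the 6 lists. The rule found 53 genes of 18562 named in the lists, 41 of them in families 2, 3 and 4 and 12 in other families. RefSeq annotates 103 P450 genes of this form in the mouse genome, of which 49 were not in the lists used here. The remaining gene, Cyp4f37, was listed under the older name Gm9705 and is therefore not among the 53.

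P450 enzymes carry a haem group and insert 1 atom of oxygen into their substrates, taking electrons from the reductase Por in the endoplasmic reticulum or from ferredoxin in mitochondria. Many members of families 2 and 3 clear drugs and other foreign compounds in the liver, those of family 4 hydroxylate fatty acids and eicosanoids, and the smaller families make or break down steroid hormones, bile acids, oxysterols and vitamin D. Families 2, 3 and 4 grew by tandem duplication and lie in arrays of similar genes, whereas the steroid and vitamin D enzymes mostly have single genes. Trimethylation of histone H3 at lysine 4 (H3K4me3) marks the starts of genes that are transcribed or ready to be, and trimethylation at lysine 27 (H3K27me3) is laid down by Polycomb complexes over silent genes.

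The study measured both marks by ChIP-seq in control cells that carry a non-targeting guide RNA (sg-Ctrl) and in a clone, KO-N13, in which Nup210 was knocked out with CRISPR/Cas9 (KO). NUP210 is a membrane protein of the nuclear pore complex. Its own chromatin sites, and those of several pore proteins recognised by the antibody mAb414 (NPC), were mapped in sg-Ctrl cells alone. Each of the 6 lists comes from 1 library, so KO and sg-Ctrl could not be compared over replicates, no test was made between them, and a difference between the conditions cannot be told apart from a difference between 2 libraries or from a property of the clone. A lower signal in fewer cells and a lower signal per cell cannot be told apart either.

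Peaks on the members held 20672 (sg-Ctrl) and 21663 (KO) H3K4me3 reads, 58023 and 224557 H3K27me3 reads in the same order, 12776 NUP210 reads and 8586 NPC reads. Against sg-Ctrl, the KO library had 1.27 times the depth for H3K4me3 and 3.16 times for H3K27me3, and wherever levels are called scaled, reads were divided by the size of their library relative to IgG. Intervals in brackets are 95% intervals for counting error only. The H3K4me3 lists named 4 of 4 mammary epithelial markers, 1 of 5 hepatocyte markers (Apoa1), 0 of 3 markers of steroid-making cells and 1 of 3 leukocyte markers (Cd68), with the same counts in both conditions. The KO lists measure histone marks and not the NUP210 protein, and a peak at the start of Nup210 was listed in both conditions, so they do not check the knockout.

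Few P450 genes carried H3K4me3 in these cells. The mark was listed at the start of 15 of the 103 annotated genes in sg-Ctrl (14.6%, Wilson interval 9.03 to 22.6), where the share over all 21459 annotated genes was 54%, and at 14 in KO. Among families 2, 3 and 4 it was listed at 8 of 82 genes (9.76%, interval 5.03 to 18.1) and among the other families at 7 of 21 (33.3%, interval 17.2 to 54.6). These intervals overlap, and neighbouring copies are not independent. The mark was listed at 3 of the 51 genes of family 2, at 0 of the 9 of family 3 and at 5 of the 22 of family 4. Cyp51, the lanosterol demethylase of cholesterol synthesis that every cell uses, lies outside the naming rule and had an H3K4me3 peak in both conditions.

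The density of the mark at the 15 starts was mostly low. In sg-Ctrl, 12 of the 15 lay below the 50th percentile of all genes with H3K4me3, measured as reads per kb of peak. The exceptions were Cyp4f41-ps, a pseudogene of the fatty acid hydroxylase subfamily, Cyp20a1, an enzyme without a known substrate, and Cyp39a1, an oxysterol hydroxylase of bile acid synthesis. The peaks of Cyp4f41-ps, Cyp39a1 and Cyp24a1 were also assigned to a neighbouring gene (Zfp472, Slc25a27 and Pfdn4), so the mark there cannot be credited to the P450 gene alone.

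**Figure D1:**
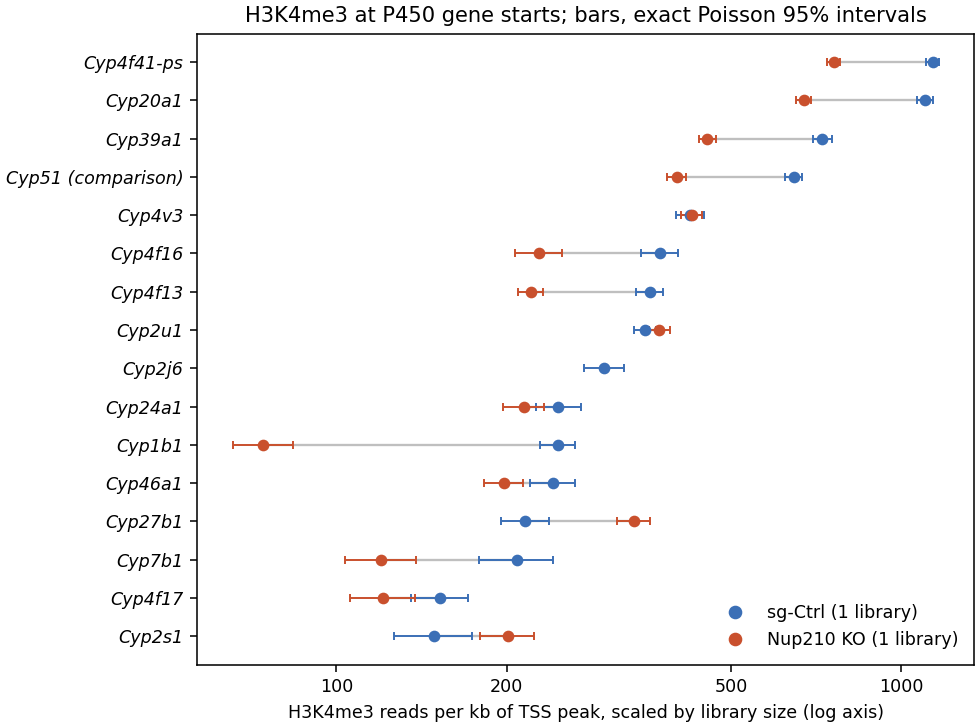
H3K4me3 at the starts of 15 P450 genes and Cyp51, as scaled reads per kb of peak on a log axis, in sg-Ctrl and KO (1 library each, bars are 95% Poisson intervals of the read count). Levels run from 149 at Cyp2s1 to 1136 at Cyp4f41-ps in sg-Ctrl, and Cyp2j6 has no KO value because no peak was listed.

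Cyp1b1, which oxidises oestradiol and polycyclic aromatic hydrocarbons and is known from tissues outside the liver, had the lowest KO to sg-Ctrl ratio of the members. Its start (chromosome 17, minus strand) lay under a peak of 784 reads at chr17:79714001-79717000 in sg-Ctrl and under one of 260 reads at chr17:79714401-79717000 in KO. The scaled level per kb of peak was 246 reads, and 74.2 in KO, with a log2 ratio of -1.73 (-1.94 to -1.53). A second peak of 251 reads downstream, at chr17:79710801-79713200, was listed in sg-Ctrl and not in KO. The ratio was lower at only 0.402% of the genes compared.

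The highest ratio was at an enzyme of the vitamin D pathway. Cyp27b1, which makes the active hormone, had 412 sg-Ctrl reads and 905 KO reads, at a scaled level of 216 and 336 per kb. Its log2 ratio of 0.64 (0.47 to 0.81) was the highest of the members, higher than that of 98.6% of the genes compared. The peak began 0.355 kb downstream of the annotated start in both lists, at chr10:127048601-127050400 in sg-Ctrl. Cyp24a1, which inactivates the hormone, had 472 and 578 reads and a scaled level of 247 and 214 reads per kb, with a log2 ratio of -0.20 (-0.38 to -0.03), which turns to 0.29 relative to the median of all genes. Cyp2r1, which carries out the first hydroxylation of the vitamin, had no H3K4me3 peak and lay in H3K27me3, described further on.

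Among the fatty acid and eicosanoid enzymes, Cyp2j6, an arachidonic acid epoxygenase, was the single member with H3K4me3 in 1 condition. Its sg-Ctrl peak at chr4:96552401-96554200 held 569 reads, or 298 scaled reads per kb (274 to 324), and no KO peak was listed; 1% of annotated genes had the mark in sg-Ctrl alone. Cyp2u1, a hydroxylase of long-chain fatty acids, had 1937 sg-Ctrl reads and 2109 KO reads, which is 351 and 373 scaled reads per kb, and a log2 ratio of 0.09 (-0.004 to 0.18). Without division by the peak width, which was 5200 bp in sg-Ctrl and 4200 bp in KO, this ratio turns to -0.22. Cyp2s1, an epithelial P450, had 158 and 325 reads, 149 and 201 scaled reads per kb, and a log2 ratio of 0.43 (0.15 to 0.72). Cyp4v3, a fatty acid hydroxylase, had 1166 and 2180 reads, 423 and 426 scaled reads per kb, and a log2 ratio of 0.01 (-0.09 to 0.11), which is 0.56 by total reads, the peak being 2600 bp wide in sg-Ctrl and 3800 bp in KO.

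The Cyp4f genes, whose products hydroxylate leukotrienes and other fatty acids, were lower in KO on the scaled level, as were genes in general. Cyp4f13 had 1294 sg-Ctrl reads and 1428 KO reads, 359 and 221 scaled reads per kb, and a log2 ratio of -0.70 (-0.81 to -0.59). Cyp4f16 had 713 and 431 reads, 373 and 228 scaled reads per kb, and a log2 ratio of -0.71 (-0.88 to -0.53). Cyp4f17 had 291 and 228 reads, 152 and 121 scaled reads per kb, and a log2 ratio of -0.33 (-0.59 to -0.08). The pseudogene Cyp4f41-ps, with 5783 and 5530 reads, had 1136 and 760 scaled reads per kb and a log2 ratio of -0.58 (-0.63 to -0.53). Relative to the median of all genes, given below, Cyp4f13 stood at -0.20, Cyp4f16 at -0.21, Cyp4f41-ps at -0.08 and Cyp4f17 at 0.17. By total reads the ratios were -0.20 at Cyp4f13, -1.07 at Cyp4f16, -0.70 at Cyp4f17 and -0.41 at Cyp4f41-ps. The median of all genes by total reads was -0.33.

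The oxysterol and cholesterol enzymes were also lower in KO on this scale. Cyp7b1, an oxysterol hydroxylase, had 177 sg-Ctrl reads and 194 KO reads with 0 IgG reads in either peak, 209 and 120 scaled reads per kb, and a log2 ratio of -0.80 (-1.10 to -0.50). The Cyp7b1 peak was 800 bp wide in sg-Ctrl and 1200 bp in KO, and by total reads the ratio was -0.21. Cyp39a1 had 2460 and 3057 reads, 725 and 454 scaled reads per kb, and a log2 ratio of -0.68 (-0.75 to -0.60). Its peak was 3200 bp wide in sg-Ctrl and 5000 bp in KO, and by total reads the ratio was -0.03. Cyp46a1, the cholesterol 24-hydroxylase best known from neurons, had 461 and 639 reads, 241 and 198 scaled reads per kb, and a log2 ratio of -0.29 (-0.46 to -0.11), which turns to 0.21 relative to the median of all genes and to 0.13 by total reads. Cyp20a1 had 3744 and 3799 reads, 1103 and 671 scaled reads per kb, and a log2 ratio of -0.72 (-0.78 to -0.65). With a peak of 3200 bp in sg-Ctrl and 4200 bp in KO, its ratio by total reads was -0.32. Cyp51, for comparison, had 3284 and 2591 reads, 645 and 401 scaled reads per kb, and a log2 ratio of -0.69 (-0.76 to -0.61).

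Over all 12197 genes with H3K4me3 in both lists the median log2 ratio was -0.50, and over the 14 members it was -0.46 (interval from order statistics, -0.72 to 0.09). That interval treats the genes as independent, which neighbours are not, and it includes 0. The members' median was below 0 on the scaled reads, like that of genes in general. Of the 14, 7 lay below the all-gene median and 7 above it. A ratio of at most 0.5 was found at 1 of the 14, Cyp1b1, against 9.66% of all genes, and a ratio of at least 2 at 0 of 14, against 0.525%. Relative to the all-gene median, Cyp1b1 stood at -1.23 and Cyp27b1 at 1.14, so that Cyp27b1 then passed 2-fold, as did 2.2% of all genes, while 0.926% fell to at most 0.5. When the libraries were scaled on peaks shared by both lists, every ratio rose by 0.42 and the members' median was -0.04 (all genes -0.08). The peak was wider in KO at 10 of the 14 starts and narrower at 4, and by total reads of the start peaks the median was -0.21 (all genes -0.33).

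**Figure D2:**
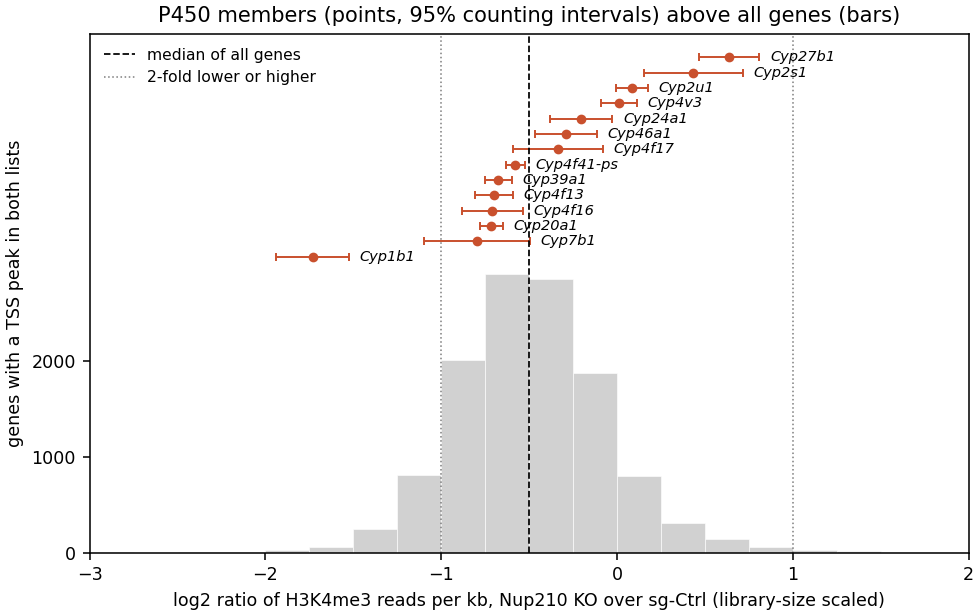
Log2 ratios of scaled H3K4me3 reads per kb, KO over sg-Ctrl, of 14 P450 genes (points, bars are 95% intervals for counting error) above the histogram of all 12197 genes compared. The members spread on both sides of the all-gene median of -0.50, with Cyp1b1 at -1.73 and Cyp27b1 at 0.64 at the ends.

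Promoter sequences are shown for the 2 genes at the ends of this range, for Cyp2j6, whose peak was listed in sg-Ctrl alone, and for 1 gene of each array described below (Cyp2c29 and Cyp4f15). They are RefSeq windows of the GRCm38.p6 assembly, 5′ to 3′ on the gene's strand, from 250 bases before to 50 after the start, with the dinucleotide CG in capitals. They lie at chr17:79715012-79715311 (minus strand, Cyp1b1), chr10:127047996-127048295 (plus strand, Cyp27b1), chr4:96553602-96553901 (minus strand, Cyp2j6), chr19:39286835-39287134 (plus strand, Cyp2c29) and chr17:32685409-32685708 (plus strand, Cyp4f15).
Cyp1b1: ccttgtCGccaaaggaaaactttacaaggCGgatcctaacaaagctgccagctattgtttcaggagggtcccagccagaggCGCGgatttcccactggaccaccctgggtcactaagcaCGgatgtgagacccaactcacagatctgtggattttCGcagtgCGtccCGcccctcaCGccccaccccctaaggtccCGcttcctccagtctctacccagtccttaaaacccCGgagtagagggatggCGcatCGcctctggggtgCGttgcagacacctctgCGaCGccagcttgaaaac
Cyp27b1: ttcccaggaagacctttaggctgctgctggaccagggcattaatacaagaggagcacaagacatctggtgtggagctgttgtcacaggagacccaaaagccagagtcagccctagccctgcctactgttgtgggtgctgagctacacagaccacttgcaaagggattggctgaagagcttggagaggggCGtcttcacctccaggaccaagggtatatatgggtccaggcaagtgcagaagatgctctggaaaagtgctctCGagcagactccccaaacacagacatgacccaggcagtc
Cyp2j6: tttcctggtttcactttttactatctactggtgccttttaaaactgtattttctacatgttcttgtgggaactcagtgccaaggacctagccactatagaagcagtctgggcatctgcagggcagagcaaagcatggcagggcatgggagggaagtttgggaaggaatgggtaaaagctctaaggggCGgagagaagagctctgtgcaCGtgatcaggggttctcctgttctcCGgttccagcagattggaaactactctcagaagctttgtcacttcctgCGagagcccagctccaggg
Cyp2c29: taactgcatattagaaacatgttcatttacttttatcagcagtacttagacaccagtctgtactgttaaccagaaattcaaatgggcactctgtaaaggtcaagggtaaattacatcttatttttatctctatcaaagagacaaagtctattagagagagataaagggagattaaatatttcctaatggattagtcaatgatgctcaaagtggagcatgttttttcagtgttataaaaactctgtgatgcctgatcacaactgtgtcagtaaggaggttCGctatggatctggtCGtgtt
Cyp4f15: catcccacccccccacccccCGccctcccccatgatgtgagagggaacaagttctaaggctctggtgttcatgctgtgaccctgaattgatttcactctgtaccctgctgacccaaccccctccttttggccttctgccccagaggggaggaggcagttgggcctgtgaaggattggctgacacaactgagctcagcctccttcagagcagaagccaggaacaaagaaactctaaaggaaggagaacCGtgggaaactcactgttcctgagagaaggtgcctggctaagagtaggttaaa
The Cyp1b1 window held 16 CG dinucleotides, spread along its length, whereas the windows of Cyp27b1, Cyp2c29 and Cyp4f15 held 2 each and that of Cyp2j6 held 4.

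The starts of members with and without H3K4me3 differed in CG content. It was counted in the same window of 300 bases around the gene starts of the older NCBIM37 annotation, which gave a sequence for 51 of the 53 members by name. The 15 members with H3K4me3 in sg-Ctrl had a median of 12 CG dinucleotides (2 to 34), and the 36 of 38 others that were matched had a median of 3 (0 to 22). At least 10 were found at 10 of the 15 and at 1 of the 36, which was Cyp2r1 with 22. Over all genes with H3K4me3 the median was 20 and 79.8% had at least 10. Over genes found in another list alone the median was 3 and 25.0% had at least 10. The direction of the members' difference was thus also that of genes in general. Members of both classes had at least 10 less often, at 66.7% with the mark and 2.78% without it. With few CG and yet with H3K4me3 were Cyp27b1 and Cyp4f16 with 2 and Cyp2j6 with 4, the same numbers as in their RefSeq windows. The windows of the annotations do not coincide at every gene, and Cyp4f13 had 3 in NCBIM37 and 6 in RefSeq, and Cyp2s1 7 and 17.

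The motif TATAAA, searched on both strands, was found at 0 of the 15 starts with H3K4me3, against 7.36% of all genes with the mark. At the 36 without the mark the motif was found at 12 (33.3%), 9 of which were Cyp2c genes. This compares with 22.6% of genes found in another list alone and 15.2% of all named genes. In the RefSeq windows, which were at hand for fewer members, the motif was found at 0 of 9 with the mark, against 6.38% of all genes with it. At those without the mark it was found at 13 of 29 (44.8%). This compares with 23.3% of genes found in another list alone and 14.1% of all promoters. Among the 13 was the window of Cyp2c29 printed here, whose NCBIM37 window lacks the motif. GCGTG, the core bound by the dioxin receptor Ahr with Arnt, was found on either strand at 8 of the 15 (53.3%) and 8 of the 36 (22.2%). The shares were 50.6% of all genes with H3K4me3, 22.2% of genes found in another list alone and 31.1% of all named genes. GCGTG contains a CG itself. A match is a string of letters and not a measured site.

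**Figure D3:**
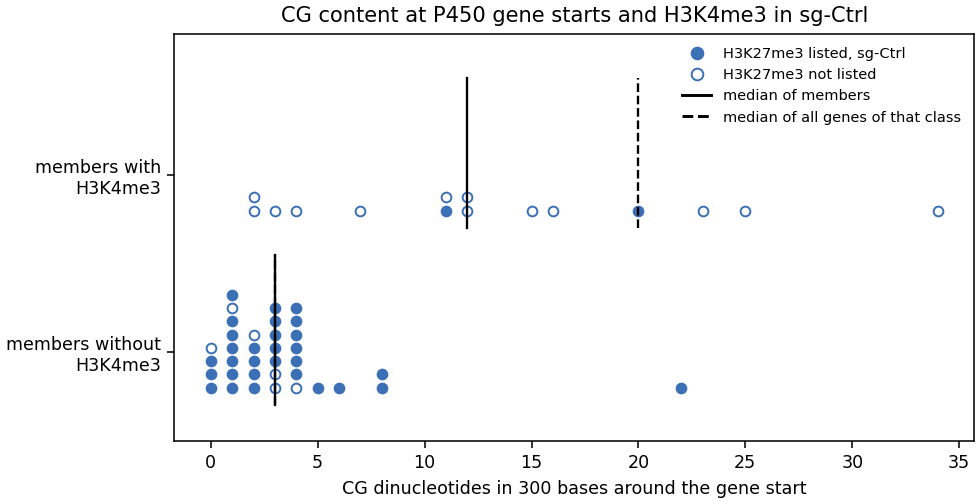
Number of CG dinucleotides in the 300 bases around the start of 51 P450 genes (1 point per gene), split by whether an H3K4me3 peak was listed in sg-Ctrl. The genes with the mark range from 2 to 34, and those without it lie at 8 or fewer apart from Cyp2r1 at 22.

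H3K27me3 was the commonest mark on the members. In sg-Ctrl it was listed on the bodies of 34 of the 103 annotated P450 genes (33.0%, interval 24.7 to 42.6), against 20.4% of all annotated genes. In KO it was listed on 36 members and on Cyp4f37, or 35.9%, against 21.1%. The excess lay in 1 subfamily: all 16 Cyp2c genes had the mark in sg-Ctrl and the other 87 P450 genes had it at 18 (20.7%, interval 13.5 to 30.4). Families 2, 3 and 4 had it in sg-Ctrl at 30 of 82 genes (36.6%, interval 26.98 to 47.4) and the other families at 4 of 21 (19.0%, interval 7.67 to 40.0). These intervals overlap, and the difference depends on the grouping. With arrays defined by position, as at least 3 genes with gaps of at most 200 kb, the shares were alike. They were 24 of 73 genes inside arrays (32.9%) and 10 of 30 outside (33.3%). In sg-Ctrl 32 of the 34 had no H3K4me3. Most genes with H3K27me3 lacked it in general, as 649 of the 4387 annotated genes with H3K27me3 in sg-Ctrl also had H3K4me3.

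The members were longer than the P450 genes with no peak. The median gene length was 27.4 kb for the 53 members, 13.7 kb for the 49 unlisted genes and 17.3 kb for all annotated genes. No peak of any kind was listed at the dioxin-induced genes Cyp1a1 and Cyp1a2, at the retinoic acid hydroxylases Cyp26a1, Cyp26b1 and Cyp26c1, at the bile acid enzymes Cyp27a1 and Cyp8b1, or at the steroid enzymes Cyp21a1 and Cyp11b2. The 4 Cyp2a and 8 Cyp4a genes were unlisted too, as were 9 of 10 Cyp2d and 6 of 9 Cyp3a genes. In NCBIM37 sequence, 46 of the 49 unlisted P450 genes were found by name and shared a median of 7.20% of their 50-base words with another P450 gene and 51 listed ones 1.16%. How reads that map to several places were handled is not given in the sources used here, and the part of shared sequence in these counts was not tested.

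The Cyp2c array of chromosome 19 carried H3K27me3 along most of its length. Enzymes of this subfamily oxidise drugs and arachidonic acid, mainly in the liver, and Cyp2c55 and Cyp2c65 are known from the gut. The array of 15 genes spans 1180 kb at chr19:39006940-40187286. In sg-Ctrl 29 peaks with 29168 reads covered 685 kb of it (58.1%), and in KO 25 peaks with 101805 reads covered 852 kb (72.2%). No H3K4me3 peak was listed there in either condition. Median peak width was 16 kb in sg-Ctrl and 26 kb in KO, and the widest peak was 77 and 137 kb. Scaled reads summed to 34448 in sg-Ctrl and 38044 in KO, but scaled reads per kb of peak were 49.2 and 43.8, so the KO cover was longer and thinner.

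Reads outside listed peaks are not in the lists, so a ratio over a region that is covered further in 1 condition is a ratio of reads within peaks. Scaling the libraries on shared peaks would lower each H3K27me3 log2 ratio by 0.12. The mark was densest at the distal end of the array. A single peak over Cyp2c54 and Cyp2c50 held 4827 reads on 77 kb in sg-Ctrl and 14820 on 78 kb in KO, or 73.1 and 71.0 scaled reads per kb of the region, with a log2 ratio of -0.04 (-0.09 to 0.01). At Cyp2c70, a bile acid hydroxylase in mice, the values were 65.1 and 72.7, with a log2 ratio of 0.16 (0.10 to 0.22), or 0.03 with that scaling. The middle of the array was sparser than the distal end in both conditions, and peaks that were apart in sg-Ctrl were joined in KO. Over Cyp2c68 and Cyp2c40, 5 sg-Ctrl peaks with 3327 reads covered 97 kb, and 1 KO peak with 11646 reads ran through 137 kb at chr19:39690001-39827000. The reads per kb of that region differed little, 28.7 and 31.8, with a log2 ratio of 0.15 (0.09 to 0.20), or 0.02 with that scaling. Next to Cyp2c69, at chr19:39886001-39947000, the covered length was 15 kb with 815 reads in sg-Ctrl, and in KO 61 kb with 7506 reads, giving a log2 ratio of 1.54 (1.44 to 1.65).

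Cyp2c66 had the longest cover of any member in sg-Ctrl, 51859 bp in both conditions and 71.2% of the gene. Cyp2c39 went from 42708 to 51708 bp, Cyp2c68 from 29101 to 51101 bp, Cyp2c38 from 44520 to 47520 bp and Cyp2c40 from 29742 to 45742 bp. Cyp2c29 was covered whole, over 43629 bp, in both. In all, 7 of the 15 array genes were covered over a longer stretch in KO (46.7%, against 38.3% of all genes with the mark in both lists), and the other 8 were equal. Cyp2c40, Cyp2c68, Cyp2c69 and Cyp2c67 share 42.9%, 39.4%, 36.2% and 29.5% of their 50-base words with another P450 gene, so reads there may belong to a copy and their values are uncertain. Cyp2c44 (Cyp2c23 in RefSeq), which lies apart on the same chromosome, had 361 reads on 24.7% of its body in sg-Ctrl, 2.60-fold over IgG, and no peak in KO.

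**Figure D4:**
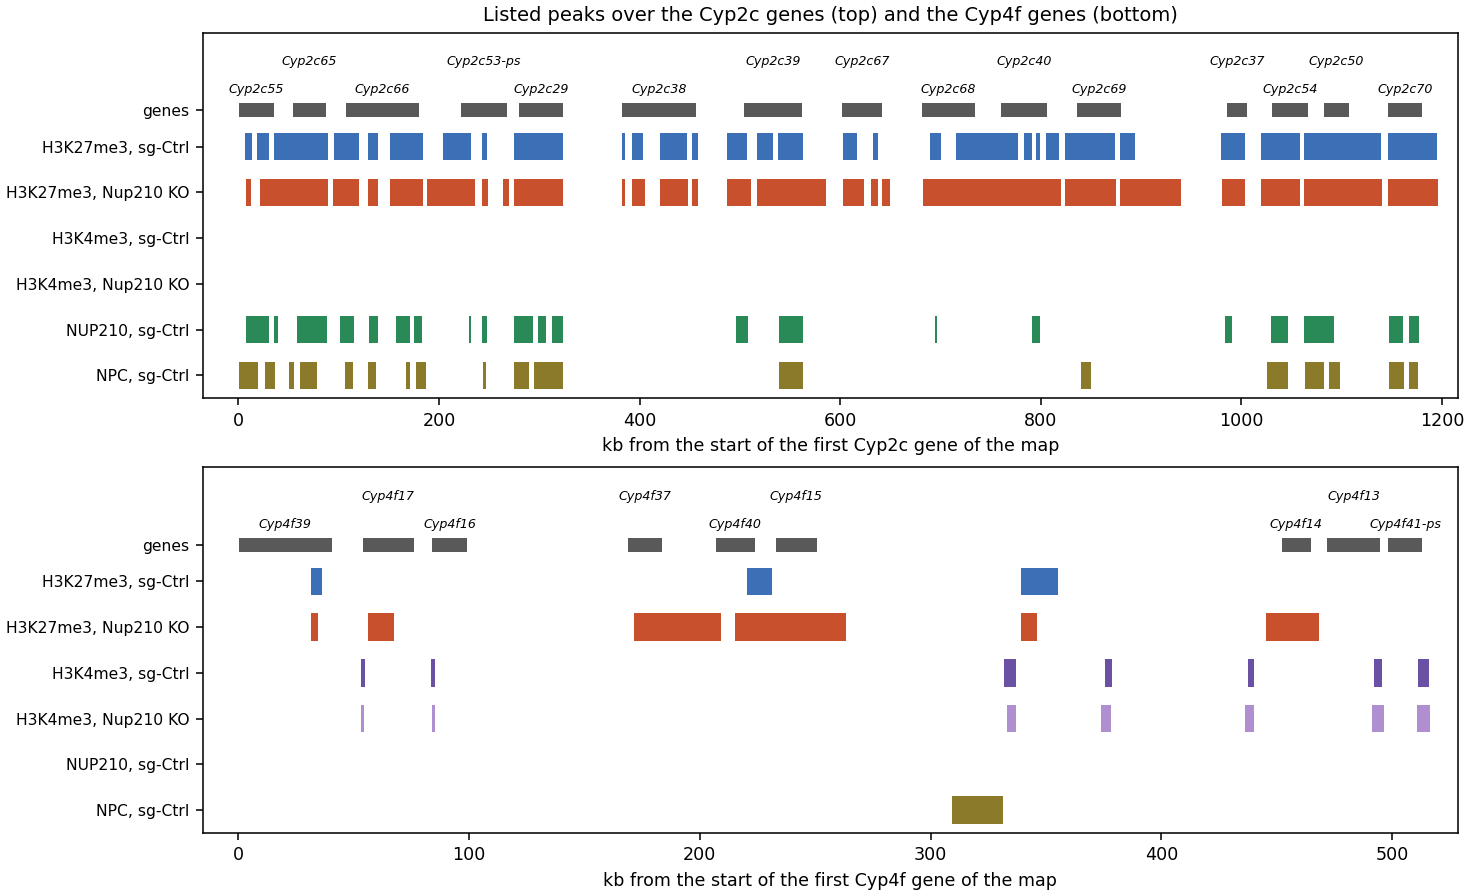
Peaks of each list along the Cyp2c array (1180 kb) and the Cyp4f stretch (513 kb), in kb from the start of the first gene, with genes drawn as boxes and each peak as a bar to scale. H3K27me3 fills 58.1% of the Cyp2c array in sg-Ctrl and 72.2% in KO, and 6.24% and 25.3% of the Cyp4f stretch.

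The Cyp4f stretch of chromosome 17 showed the reverse layout, with H3K4me3 at some genes and little H3K27me3 in sg-Ctrl. All 10 Cyp4f genes of the annotation were listed, 9 of them in this stretch of 513 kb at chr17:32452697-32965716, which also holds genes of other families. H3K4me3 marked 4 Cyp4f genes in both conditions. Of all 10 Cyp4f genes, H3K27me3 was listed on 3 in sg-Ctrl and on 7 in KO. Both counts include Cyp4f18, which lies on chromosome 8 outside the stretch, and the KO count includes Cyp4f37. Within the stretch 3 peaks with 793 reads covered 32 kb in sg-Ctrl (6.24%), and 6 peaks with 8306 reads covered 130 kb in KO (25.3%).

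Several Cyp4f genes had H3K27me3 in KO alone, which 3.59% of all annotated genes had. Cyp4f15 lay under a KO peak of 48 kb with 2975 reads at chr17:32668001-32716000, which also covered the end of Cyp4f40, where sg-Ctrl had 189 reads on 11 kb. Reads within peaks, scaled and divided by the full 48 kb of that region, were 4.65 per kb for sg-Ctrl and 23.2 for KO. Their log2 ratio was 2.32 (2.10 to 2.54). Reads of sg-Ctrl outside its 11 kb peak are not counted there, and per kb of its own peak the sg-Ctrl level was 20.3. At the depth of the sg-Ctrl library the KO reads would number 941. A neighbouring KO peak at chr17:32624001-32662000 with 2676 reads touched Cyp4f40 and Cyp4f37. Cyp4f14 was covered whole by 1244 reads that were 1.48-fold over IgG, and would hold 394 reads at sg-Ctrl depth. Cyp4f17, which kept H3K4me3 at its start, had 597 KO reads on 49.0% of its body, beginning 2.54 kb from the start and 3.06-fold over IgG, equal to 189 reads at sg-Ctrl depth.

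The steroid hormone enzymes were covered in part. Cyp19a1, the aromatase that makes oestrogens, was covered whole in both conditions, with 910 sg-Ctrl reads and 3468 KO reads, or 29.9 and 36.0 scaled reads per kb of region and a log2 ratio of 0.27 (0.16 to 0.38). Cyp17a1, which makes androgen precursors, was covered over 68.5% in both, with 622 and 1652 reads and a log2 ratio of -0.25 (-0.38 to -0.12). Cyp11a1, which cuts the cholesterol side chain, and Cyp11b1, which completes corticosterone, were listed in KO alone. The Cyp11a1 peak had 317 reads at chr9:58021001-58025000 over 33.3% of the gene, 4.23-fold over IgG, equal to 100.3 reads at sg-Ctrl depth. The Cyp11b1 peak had 660 reads at chr15:74826001-74835000 and reached only 1.61% of the gene.

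H3K27me3 was listed in KO alone on these 5 members, Cyp11a1, Cyp11b1, Cyp4f14, Cyp4f15 and Cyp4f17, and on Cyp4f37, which makes 5.83% of the 103 annotated genes. It was listed in sg-Ctrl alone on 3, or 2.91% against 2.95%. These were Cyp2c44, Cyp39a1 with 320 reads on 15.5% of the gene and 1.93-fold over IgG, and Cyp3a13, a steroid and drug hydroxylase, with 388 reads on 35.1% and 1.56-fold over IgG. The KO library was the deeper one, and the part of depth in the longer KO lists was not tested.

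Of the 31 members with H3K27me3 in both conditions, 14 were covered over a longer stretch in KO (45.2%), against 38.3% of all genes with the mark in both. Cover was shorter at 2 members (21.9% of all genes with the mark in both) and equal at 15. The shorter ones were Cyp4f39, at 12.3% of its body in sg-Ctrl and 7.39% in KO, and Cyp4x1, at 80.3% and 79.1%. Whole bodies were covered at 7 of 34 genes in sg-Ctrl (20.6%, against 31.4% of all genes) and at 11 of 36 in KO (30.6%, against 38.2%). A peak reached the start of the gene at 20 of the 34 in sg-Ctrl and at 26 of the 36 in KO, against 55.8% and 60.8% of all genes with the mark.

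The longest extensions of cover outside the Cyp2c array and the Cyp4f stretch were at genes of families 2 and 4. Cyp2b10, the phenobarbital-induced gene of the liver, was covered over 20.7% by 231 reads in sg-Ctrl and over 86.2% by 6234 reads in KO. The region at chr7:25907001-25965000 had the highest ratio of reads within peaks on any member. Per kb of the whole region these were 4.70 scaled reads for sg-Ctrl and 29.2 for KO, a log2 ratio of 2.63 (2.44 to 2.83). Cyp2g1, known from the olfactory epithelium, was covered over 16.9% by 105 reads and over 90.2% by 1144 reads, with a log2 ratio of 1.79 (1.50 to 2.09). Cyp4f18, on chromosome 8, was covered over 16.6% by 294 reads and over 100% by 2687 reads, with a log2 ratio of 1.53 (1.36 to 1.71). At these 3 genes the sg-Ctrl peak was short, 6, 4 and 11 kb, against 58, 17 and 36 kb in the same region in KO. Reads of sg-Ctrl outside its peak are not counted in the ratios. Per kb of listed peak the scaled level was instead higher in sg-Ctrl. It was 45.5 in sg-Ctrl and 28.4 in KO at Cyp2b10, 31.0 and 25.1 at Cyp2g1, and 31.6 and 27.9 at Cyp4f18.

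Cyp7a1, the rate-limiting enzyme of bile acid synthesis from cholesterol, stood at the other end. Over chr4:6228001-6269000 it had 1032 reads on 41 kb in sg-Ctrl and 635 on 10 kb in KO. Per kb of the whole region this was 29.7 and 5.79 scaled reads, a log2 ratio of -2.36 (-2.51 to -2.22). Reads of KO outside its 10 kb peak are not counted there. Per kb of all peaks listed on the gene the scaled level was 33.4 in sg-Ctrl and 25.4 in KO. The adjoining region at chr4:6273001-6294000 did not follow, with 497 and 1473 reads and a log2 ratio of -0.09 (-0.24 to 0.06), and 60.1% of the gene body was covered in both conditions. Cyp2r1 had the densest mark of the members. It lay within a peak of 162 kb at chr7:114411001-114573000 in both lists, with 14045 and 31963 reads, 102 and 73.7 scaled reads per kb, and a log2 ratio of -0.47 (-0.50 to -0.45). Cyp2e1, which oxidises ethanol, lay in 96 kb of cover in sg-Ctrl and 105 kb in KO, at 37.2 and 38.1 scaled reads per kb and a log2 ratio of 0.04 (-0.02 to 0.09) that turns to -0.09 when the libraries are scaled on shared peaks.

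Joined over both lists, the peaks on members formed 55 regions, of which 43 were in both conditions, 9 were KO only and 3 were sg-Ctrl only. The median log2 ratio of the 43 was 0.05, next to 0.02 over all 6247 regions found in both lists, and became -0.08 and -0.11 when the libraries were scaled on shared peaks, so its sign depends on the scaling. Cover was longer in KO at 26 of the 43 (60.5%, against 55.3% of all regions) and shorter at 7 (29.4% of all regions). Over all 55 regions it summed to 1454 kb in sg-Ctrl and 1888 kb in KO, a ratio of 1.30, beside 1.19 over all regions of the lists. The mean level on members per kb of peak was 51.9 scaled reads for sg-Ctrl and 44.4 for KO.

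Both marks were listed on the same gene at 2 members in sg-Ctrl, Cyp39a1 and Cyp4v3, while 3.02% of all annotated genes had both. In each case they lay at different places. At Cyp4v3 the nearest H3K27me3 peak was 6.20 kb from the gene start, and at Cyp39a1 it was at chr17:43734001-43747000, far into a gene that begins at position 43667424. In KO the genes with both were Cyp4v3 and Cyp4f17. The H3K27me3 that reaches the far end of Cyp4v3 joined from 3 sg-Ctrl peaks on 177 kb with 7972 reads into 1 KO peak of 242 kb with 42260 reads. The log2 ratio of these reads within peaks was 0.75 (0.71 to 0.78), while the H3K4me3 log2 ratio of the gene was 0.01.

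NUP210 peaks were listed on 25 members, 24.3% of the 103 annotated P450 genes, against 26.7% of all genes. NPC peaks were listed on 17 (16.5%, against 24.2%). These are shallow peaks. Over the 37 distinct NUP210 peaks on members the median fold over IgG was 1.16 (all peaks 1.19), 13 had a deposited false discovery rate (FDR) above 0.05 and 6 held fewer reads than the scaled IgG. Over the 28 NPC peaks the median was 1.12 (all peaks 1.10), with 13 above an FDR of 0.05 and 10 below IgG. A fold of at least 2 was found at 2 members for NUP210 and at 0 for NPC.

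The strongest NUP210 peaks lay at H3K4me3 genes. On Cyp1b1 the peak at chr17:79706001-79712000 held 158 NUP210 reads and 66 IgG reads, 2.37-fold over IgG with an FDR of 1.33e-20, and its near edge was 3.04 kb from the gene start. On Cyp20a1 the peak at chr1:60369001-60378000 held 229 reads and 110 IgG reads, 2.06-fold with an FDR of 1.13e-21, and lay 25.6 kb from the start. Next came Cyp2c68 with 94 reads and 55 IgG reads (1.69-fold) and Cyp2c55 with 134 and 80 (1.66-fold). Cyp2ab1, with 110 and 66 (1.65-fold), had no histone peak in any list, and Cyp2j13, with 355 and 214 (1.64-fold), carried H3K27me3. Folds of 1.45 at Cyp2c54, 1.44 at Cyp2c53-ps, 1.42 at Cyp2c40 and 1.35 at Cyp2c44 complete the 10 highest.

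The highest NPC fold was 1.97 at Cyp7b1, with 154 reads against 129 from the larger IgG library, in a peak 72.3 kb from the gene start. It was followed by 1.83 at Cyp2c50 (209 and 188 reads), 1.58 at Cyp3a13 (136 and 142 reads), 1.47 at Cyp2r1 (240 and 269 reads) and 1.46 at Cyp2j12 (234 and 264 reads). Folds of 1.45 at Cyp2c55, 1.44 at Cyp2c69, 1.41 at Cyp2c66, 1.39 at Cyp2c65 and 1.30 at Cyp2c44 complete the 10 highest. Cyp1b1 and Cyp20a1, first for NUP210, had no NPC peak.

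The Cyp2c genes held most pore protein peaks, with NUP210 on 13 of 16 and NPC on 11 of 16. Outside this subfamily NUP210 was listed on 12 of 87 P450 genes (13.8%, interval 8.07 to 22.6) and NPC on 6 (6.90%, interval 3.20 to 14.2). Along the array, 21 NUP210 peaks covered 271 kb (23.0%) and 18 NPC peaks 236 kb (20.0%), but 10 of the 21 and 5 of the 18 had an FDR of at most 0.01, and 3 and 9 held fewer reads than the scaled IgG. The Cyp4f stretch had 0 NUP210 peaks and 1 NPC peak.

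Of the 34 members with H3K27me3 in sg-Ctrl, 19 also had NUP210 (55.9%, against 47.3% of all genes with H3K27me3). Of the 15 with H3K4me3, 5 did (33.3%, against 27%), namely Cyp1b1, Cyp20a1, Cyp2j6, Cyp4v3 and Cyp7b1. NPC was also listed on 16 of the 25 NUP210 genes (64.0%, against 78.5%), and Cyp2c69 was the single member with NPC and no NUP210. Cyp2ab1 and Cyp3a16 were listed for pore proteins alone. The start of the gene lay under a peak at 9 of the 25 genes for NUP210 (46.4% of all genes with such a peak) and at 7 of the 17 for NPC (46.2%). At 5 members, Cyp2c37, Cyp2c50, Cyp2c70, Cyp3a13 and Cyp4v3, every NUP210 peak had an FDR above 0.05.

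H3K4me3 was listed at most genes that serve the P450 enzymes. Of 12 electron donors and haem genes, 11 had H3K4me3 in both conditions, Cyb5a being unlisted, with a median log2 ratio of -0.49. The ratio was at most 0.5 at 1 of them, Fech, which inserts iron into haem (553 and 261 scaled reads per kb, -1.08), and at Por it was -0.43 (393 and 293). This is 1 of 11 genes, beside 9.66% of all genes, and relative to the all-gene median Fech stood at -0.58, short of 2-fold. Of 15 other sterol synthesis genes, 14 had the mark in both, with a median of -0.54, and 3 had a ratio of at most 0.5 (Tm7sf2 at -1.12, Lss at -1.10 and Hsd17b7 at -1.05). Relative to the all-gene median these stood at -0.62, -0.60 and -0.55, so 0 of the 14 then passed 2-fold. None of these 25 genes reached 2-fold higher, and the medians were close to the all-gene value of -0.50.

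The regulators of P450 genes were marked about as often as genes in general. Of 18 receptors and partners, 9 had H3K4me3 in each condition (54% of all annotated genes) and 8 in both, with a median log2 ratio of -0.59 and 0 past 2-fold in either direction. The dioxin receptor Ahr had a scaled level per kb of 1195 for sg-Ctrl and 708 for KO (-0.76), its partner Arnt 1046 and 667 (-0.65), and the vitamin D receptor Vdr 360 and 403 (0.16). H3K27me3 was listed on 5 of the 18 in sg-Ctrl and 4 in KO (20.4% and 21.1% of all annotated genes), among them Nr1i2, the receptor that induces Cyp3a genes in the liver, Ppara, which induces Cyp4a genes, and Nr5a2, a regulator of Cyp7a1 and Cyp19a1, in both conditions.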

How the data were processed

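The data were 6 lists of ChIP-seq peaks on genes of 4T1 cells, 1 library each. The authors called the peaks with SICER against IgG, with a window of 200 bp where H3K4me3 was the target and of 1000 bp elsewhere. For each peak the authors deposited raw counts of ChIP and IgG reads, a p-value, an FDR, and the fold over IgG as a ratio that takes library size into account. H3K4me3 was listed on gene starts and the other targets on gene bodies, so peaks elsewhere are not described. The processing notes name Trimmomatic, Bowtie2, STAR and Picard without their roles. The ChIP-seq build, read length and handling of reads with several alignments are not given in the sources used here. Of 45 members matched by name to GRCm38, 39 began or ended at most 50 bp from their GRCm38 position (NCBIM37, 0 of 43), so positions are taken as GRCm38. The RNA-seq (4 samples) was not analysed here, and the 3 IgG samples entered through their reads in the lists.

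Library size relative to IgG was worked out from the read counts and fold of the peaks and used to scale reads. Each gene's H3K4me3 value is its start peak with the most reads per kb. For H3K27me3, peaks of both lists that overlapped by at least 1 bp were joined into regions. Read counts have exact Poisson intervals, ratios of 2 counts have exact binomial ones, and shares have Wilson intervals, at 95%. A ratio of 0.5 or 2 counted as called. Shares refer to 103 P450 and 21459 genes of RefSeq GRCm38.p6. CG content came from NCBIM37 gene starts matched by name, since the RefSeq promoter table matched 38 of the 53 members, and the 2 counts were within 2 of each other at 30 of those 38. Scripts ran in Python 3.11.15 with scipy 1.17.1, numpy 2.4.6, matplotlib 3.10.9 and pandas 2.3.3, and were tested on simulated data.

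The members and gene lists were chosen with earlier results of these data known. Genes given with full values are members with H3K4me3, those with H3K27me3 in 1 list alone, the 5 with the longest H3K27me3 cover, at most 10 NUP210 and 10 NPC genes by fold with an FDR of at most 0.01, and array genes that share a peak. Others named, for a large or small change in H3K27me3, were chosen after their values were seen. Alternatives were other scalings, other start peaks, the deposited fold, a minimum of 100 reads, FDR and fold limits, at least 50% of the gene body covered, and arrays defined as at least 3 genes with gaps of at most 200 kb.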

Additional observations from a re-analysis of the deposited data

How the results depend on the processing

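Of 44 alternative values for 13 results, 32 kept their sign (for the median log2 ratio) or lay within 1.5 times the reported count or share. The members' median H3K4me3 log2 ratio was -0.04 with shared-peak scaling, -0.21 with total reads and -0.26 with the deposited fold, and changed sign relative to the median of all genes (0.043). With total reads of all start peaks, or with the deposited fold over IgG, 2 members had a ratio of at most 0.5, Cyp4f16 joining Cyp1b1. With shared-peak scaling, or relative to the all-gene median, 1 member had a ratio of at least 2. Requiring 50% of the gene body gave 20 members with H3K27me3 in sg-Ctrl, 10 in KO alone, 0 in sg-Ctrl alone, 12 with NUP210 and 8 with NPC. A fold of at least 2 gave 2 members with NUP210 and 0 with NPC. The cause was not tested.

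No paired analysis was possible because each condition has 1 ChIP-seq library, and the RNA-seq samples that share replicate numbers were not analysed here. With 1 library each, none was left out. The sg-Ctrl H3K27me3 library was the shallower, and the part of depth in which genes were listed was not tested.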
